A study of Mus musculus with 9 samples.

Results

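The 10 genes described here encode proteins that make a CD4+ T cell less responsive, or are linked to the unresponsive state called anergy. They are the ubiquitin ligases Cblb, Cbl, Itch, Nedd4 and Rnf128, the ligase adaptor Ndfip1, the diacylglycerol kinases Dgka and Dgkz, and the receptor-dampening proteins Sla and Ubash3a. They were found by gene symbol among the 25160 genes of the count table, and 9 of the 10 passed the filter on low counts that left 11256 genes for testing. Rnf128 did not pass it and is given by its counts.

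RNA sequencing covered 9 libraries in 3 groups of 3, all of naive CD4+ T cells sorted from spleens of C57BL/6 mice and cultured on plates coated with 1 µg/ml anti-CD3e, an antibody that engages the receptor complex of T cells. The plates carried in addition 19 µg/ml of an antibody against CD40L or of an isotype control antibody. The groups are wild-type cells on anti-CD40L, cells on isotype antibody whose titles say KO and whose genotype label reads cre, and wild-type cells on isotype antibody. The study's design text describes the mice behind the KO titles as lacking CD40L in T cells only. The sources used here give neither the promoter driving Cre nor the deleted part of the gene, the age of the mice or the length of the culture, and they name no antibody against CD28. The labels do not state that replicates came from separate mice or cultures, so p-values measure only library-to-library spread, which may be technical.

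Anergy is known to follow when the T cell receptor is engaged without co-stimulation. Calcium then activates NFAT without its partner AP-1, and NFAT turns on genes that include ubiquitin ligases and diacylglycerol kinases. The ligases CBL-B, ITCH and GRAIL (encoded by Rnf128) mark receptor and signalling proteins for removal, and GRAIL is known to act on CD40L itself. Diacylglycerol kinases convert diacylglycerol, the lipid that recruits RasGRP1 and protein kinase C, into phosphatidic acid and so shorten Ras signalling.

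Dgka had the smallest adjusted p among these genes, and the 250 bases before 1 of its 4 starts in the RefSeq table are therefore shown, on the minus strand of GRCm38.p6 at chr10:128744077-128744326. This start is next to that of the principal transcript in GENCODE, and the window overlaps no GENCODE exon. It lies inside the annotated span of the gene, which begins at a start farther upstream. The sequence is from RefSeq, and the capitals mark a match to GGAAA, the core bases bound by NFAT.

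Dgka upstream window: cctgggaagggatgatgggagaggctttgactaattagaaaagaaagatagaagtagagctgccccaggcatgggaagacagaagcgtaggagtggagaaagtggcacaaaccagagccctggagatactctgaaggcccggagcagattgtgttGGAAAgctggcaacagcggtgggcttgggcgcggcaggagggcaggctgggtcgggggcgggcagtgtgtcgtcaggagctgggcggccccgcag

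The window held 1 GGAAA match on either strand and no match to TGANTCA (AP-1), GTAAACA (forkhead) or GCGTGGGCG (EGR). Of all 32851 windows of this length in the RefSeq table, 55.6% held GGAAA, 6.75% TGANTCA, 3.17% GTAAACA and 0.536% GCGTGGGCG. A GGAAA match is thus found in most windows. In order of their coordinates, the 4 Dgka windows held 2, 0, 1 and 2 GGAAA matches, and none of the 4 held any of the other motifs. The Dgka window at chr10:128743879-128744128 shares bases with the window shown. No overlap between matches of different motifs arose.

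Total counts ranged from 5316482 to 15565711 per library. Replicate 3 of the anti-CD40L group stood apart: it had the lowest total and 11673 genes with a count, against 14290 to 17428 in the other libraries, and lay at -86.96 on the first principal component, against -10.22 to 19.1 for the rest. The 6 of 7 listed T cell markers found in the table summed to 2924 to 3408 CPM (counts scaled to library size) in anti-CD40L libraries, 3067 to 3658 CPM in libraries labelled KO and 3225 to 3743 CPM in wild-type isotype libraries. The 10 B cell markers summed to 19.5 to 34.6, 17.1 to 51.3 and 25.6 to 59.0 CPM in the same order of groups. Among them Fcer2a was at 0.448, 1.52 and 0 CPM in anti-CD40L libraries and at 0.650, 0.293 and 0.827 CPM in libraries labelled KO, against 13.1, 16.4 and 5.51 CPM in wild-type isotype libraries. The 9 myeloid markers summed to 46.0 to 51.6, 57.1 to 104 and 80.5 to 92.1 CPM in the same order, most of it Ctss. Lyz2, Csf1r, Adgre1 and Cd14 stayed at 1.63 CPM or lower in all 9 libraries. Cd68 was at 2.06, 3.65 and 6.11 CPM in anti-CD40L libraries and 4.34, 2.64 and 3.12 CPM in libraries labelled KO. In wild-type isotype libraries Cd68 was at 4.03, 4.56 and 3.67 CPM. Itgam, also of that list, was at 0.269, 0.304 and 0 CPM in anti-CD40L libraries, 2.28, 1.10 and 1.40 CPM in libraries labelled KO and 2.60, 1.33 and 0.918 CPM in wild-type isotype cells. Itgam was called as lower on anti-CD40L than on isotype in wild type, as was Ctss. The Itgam call, at these low levels, passed in 11 of 18 other ways of fitting or sampling the data. The Ctss call passed in all 18. S100a8 and S100a9 had 2.71 and 4.66 CPM in replicate 1 of the libraries labelled KO and 0 in all other libraries. In the anti-CD40L against isotype comparison 2 of the B cell and 2 of the myeloid markers were called. The CD8 T cell, dendritic, natural killer and erythroid lists each summed to 11.9 CPM or lower in every library. The part of these marker differences in the results that follow was not tested. Cd40lg, the gene named as deleted, was at 145, 136 and 150.2 CPM in libraries labelled KO, against 142, 154 and 189 CPM in wild-type isotype libraries. A gene-level count does not check the label while the deleted part is unknown, so these libraries are called by their label throughout.

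Per kilobase of transcript, the 10 genes spanned a wide range of levels. In wild-type isotype cells Ndfip1 averaged 216 CPM per kb, Dgka 202, Sla 139, Dgkz 94.6, Cblb 67.6, Itch 20.1, Ubash3a 11.1, Cbl 8.53, Nedd4 0.227 and Rnf128 0.137 CPM per kb. Only Ndfip1 and Dgka overlapped between neighbours in this order, at 191 to 244 and 191 to 209 CPM per kb over the 3 libraries. Ndfip1, Dgka, Sla, Dgkz and Cblb lay above 97.4%, 97.3%, 95.8%, 93.2% and 89.5% of all tested genes on this scale, and Nedd4 above 1.73%. In anti-CD40L cells the order was different: Sla averaged 181 CPM per kb and Dgka 128 CPM per kb, and the lowest Sla library at 172 CPM per kb was above the highest Dgka library at 156 CPM per kb.

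**Figure D1:**
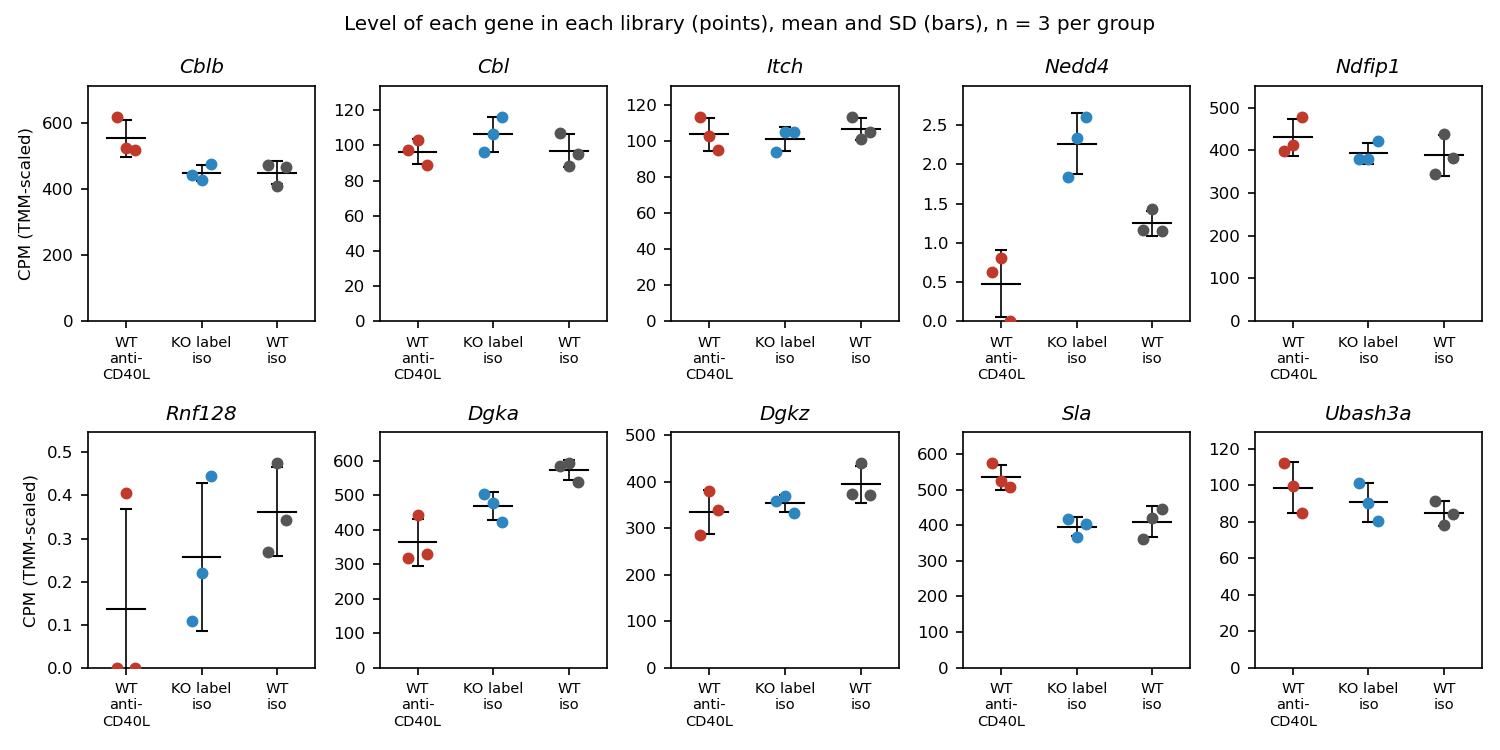
Level of each of the 10 genes (vertical axes, CPM, each starting at 0 with its own scale) in the 9 libraries, in the order wild type on anti-CD40L, labelled KO on isotype and wild type on isotype. Points are libraries, long bars means and capped bars SD (n = 3); Dgka lies between 318 and 442 CPM in anti-CD40L cells and between 539.9 and 593 CPM in wild-type isotype cells, and Nedd4 and Rnf128 stay under 3 CPM.

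The comparison of anti-CD40L with isotype antibody in wild-type cells asks which of these regulators change when the antibody binds CD40L on the T cell. Dgka was lower and Sla was higher on anti-CD40L, and the other 7 tested genes did not pass the threshold of 0.05 on the p-value of edgeR's quasi-likelihood test, adjusted by Benjamini-Hochberg over all 11256 genes (the edgeR adjusted p). Among all tested genes 9.37% passed, 2.91% as higher and 6.46% as lower. The median log2 fold change of the 9 genes was -0.01, the same as over all genes. For 4 of the 9 genes (Cblb, Nedd4, Dgka and Sla) the groups did not overlap, while 32.6% of all genes showed that separation. RNA of a bulk culture cannot tell fewer cells of a type apart from less RNA per cell, and this holds for every difference given here.

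Among the ubiquitin ligases, Cblb encodes CBL-B, a RING ligase that raises the threshold for T cell activation and whose loss frees T cells from the need for CD28. It lies on chromosome 16 (GRCm38, 52031230 to 52208047). Cblb was at 619, 525 and 518 CPM in anti-CD40L cells, against 473, 409 and 466 CPM in wild-type isotype cells, a mean of 554 ± 56.1 against 449.6 ± 35.2 (SD, n = 3 each). Every anti-CD40L library was above every isotype library. The log2 fold change was 0.30 ± 0.09 (SE; 95% interval 0.10 to 0.50), and the edgeR adjusted p of 0.0561 missed the threshold. Over 18 other ways of fitting or sampling the data that p ranged from 0.0178 to 0.212 and passed in 6.

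Cbl, the close relative of Cblb, stayed within the spread of the libraries. It was at 97.4, 103 and 88.9 CPM in anti-CD40L cells, against 107, 88.5 and 95.2 CPM in wild-type isotype cells. The groups overlapped, with a log2 fold change of -0.01 ± 0.10 and an edgeR adjusted p of 0.984 (95% interval -0.23 to 0.22). Itch, a HECT ligase that degrades JunB and PLC-gamma1 and whose loss causes T helper type 2 inflammation in mice, was at 113, 102 and 94.97 CPM on anti-CD40L, against 113, 101 and 105 CPM on isotype. Its log2 fold change was -0.04 ± 0.09 with an edgeR adjusted p of 0.835 (95% interval -0.24 to 0.16). Both intervals leave out a change as large as the fall of Dgka.

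Ndfip1 encodes a membrane adaptor that activates ITCH and other NEDD4-family ligases. It was at 399.7, 412 and 479 CPM in anti-CD40L cells, against 344, 439 and 383 CPM in wild-type isotype cells. The groups overlapped, and the log2 fold change of 0.15 ± 0.10 had an edgeR adjusted p of 0.387 (95% interval -0.07 to 0.37). The highest value came from replicate 3 of the anti-CD40L group. Without that library the log2 fold change was 0.07.

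Nedd4, a HECT ligase reported to mark CBL-B for removal after co-stimulation, and Rnf128 were close to the limit of detection. Nedd4 had 7, 8 and 0 counts in anti-CD40L libraries, against 13, 15 and 10 counts in wild-type isotype libraries. That is 0.48 ± 0.425 CPM against 1.25 ± 0.156 CPM (SD, n = 3 each). The groups did not overlap, but the log2 fold change of -1.17 ± 0.63 had an edgeR adjusted p of 0.251 (95% interval -2.53 to 0.18). Without the shallow replicate 3 of the anti-CD40L group, whose count was 0, it was -0.78.

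Rnf128 had 0, 4 and 0 counts in anti-CD40L libraries, 1, 3 and 7 counts in libraries labelled KO and 3, 5 and 3 counts in wild-type isotype libraries. A count of 0 allows up to 0.269 CPM in replicate 1 and up to 0.573 CPM in replicate 3 of the anti-CD40L group. Summed over each group, the depth-scaled ratio of anti-CD40L to wild-type isotype was 0.421 (95% counting interval 0.0978 to 1.42), and that of libraries labelled KO to wild-type isotype was 0.788 (0.31 to 2.0). No difference in Rnf128 was detectable at this depth. These intervals and limits cover counting error only.

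Of the diacylglycerol kinases, Dgka encodes DGK-alpha, whose forced expression in mouse T cells brings on an anergy-like state. The gene spans 128720131 to 128745084 on chromosome 10. Dgka was at 318, 442 and 331 CPM in anti-CD40L cells, 503, 479 and 423 CPM in libraries labelled KO and 586, 593 and 539.9 CPM in wild-type isotype cells. All 3 anti-CD40L libraries were below all 3 wild-type isotype libraries. The mean was 364 ± 68.0 CPM on anti-CD40L against 573 ± 28.9 CPM on isotype (SD, n = 3 each). This 1.57-fold fall had a log2 fold change of -0.65 ± 0.12 and an edgeR adjusted p of 0.00389 (95% interval -0.91 to -0.40). The call held under all 18 alternatives, with adjusted p between 6.34e-10 and 0.0211, and without replicate 3 of the anti-CD40L group the log2 fold change was -0.58 with an edgeR adjusted p of 0.0176.

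Dgkz encodes DGK-zeta, the other main isoform of T cells, and spans 91932822 to 91976443 on chromosome 2. It was at 285, 379 and 339.7 CPM in anti-CD40L cells, 359, 369 and 333 CPM in libraries labelled KO and 373, 440.0 and 371 CPM in wild-type isotype cells. Replicate 2 of the anti-CD40L group lay within the range of the isotype libraries, so the groups overlapped. The log2 fold change was -0.24 ± 0.11 (95% interval -0.47 to -0.01), with an unadjusted p of 0.0436 and an edgeR adjusted p of 0.175. No alternative brought it past the threshold.

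The counts of both kinases in the same library gave a comparison that scaling cannot change. The ratio of Dgka to Dgkz counts was 1.12, 1.17 and 0.974 in anti-CD40L libraries, 1.40, 1.30 and 1.27 in libraries labelled KO and 1.57, 1.35 and 1.46 in wild-type isotype libraries. The 3 groups fell in that order of means, 1.09, 1.32 and 1.46. The anti-CD40L libraries were all below the isotype libraries of either genotype. An exact permutation test of 3 against 3 libraries cannot go below p = 0.1, so the ratios are given as a description.

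Over the 10 diacylglycerol kinase genes, levels per kilobase showed where Dgka stood. Its share of the family's summed CPM per kb was 49.3, 53.0 and 47.4% in anti-CD40L libraries, 55.4, 53.3 and 52.4% in libraries labelled KO and 59.3, 57.3 and 57.1% in wild-type isotype libraries. The share of Dgkz was 30.0, 30.9 and 33.0% in anti-CD40L libraries, against 25.7, 28.9 and 26.7% in wild-type isotype libraries. Dgkd, the isoform DGK-delta, made up 15.5, 11.7 and 15.1% on anti-CD40L, against 11.5, 10.6 and 12.4% in wild-type isotype libraries. A share also rises when another gene of the family falls. The levels themselves were not higher on anti-CD40L. Dgkz averaged 80.3 CPM per kb there against 94.6 in wild-type isotype libraries, and Dgkd 35.7 against 40.0 CPM per kb. In each of the 9 libraries Dgka was the largest of the 10.

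**Figure D2:**
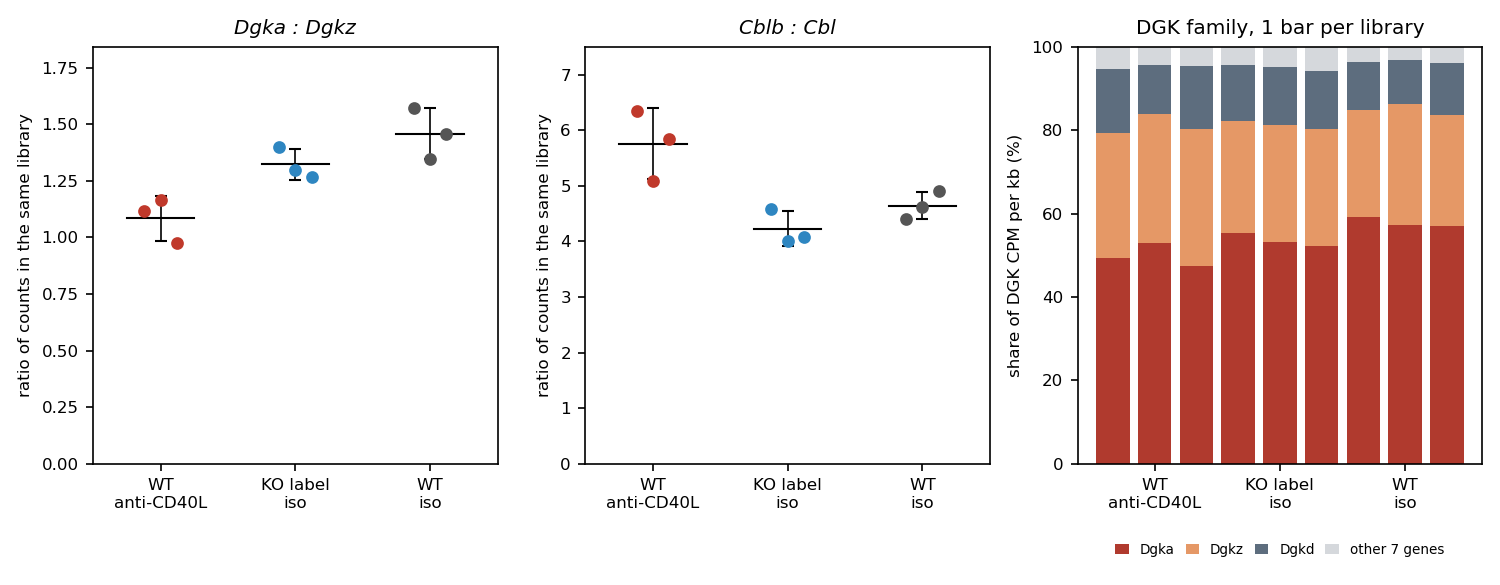
Left and centre, ratio of Dgka to Dgkz counts and of Cblb to Cbl counts in each library (points; long bars means, capped bars SD, n = 3; axes start at 0). Right, share in percent of each diacylglycerol kinase gene in the family's summed CPM per kb, 1 bar per library; the Dgka share is 47.4 to 53.0% in the 3 anti-CD40L bars and 57.1 to 59.3% in the 3 wild-type isotype bars.

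Sla and Ubash3a act next to the CBL ligases. Sla encodes SLAP, an adaptor that brings CBL to the T cell receptor zeta chain and lowers receptor levels, and spans 66780819 to 66831829 on chromosome 15. Sla was at 574, 523 and 507 CPM in anti-CD40L cells, 417, 366 and 403 CPM in libraries labelled KO and 363, 421 and 446 CPM in wild-type isotype cells. Every anti-CD40L library was above all 6 isotype libraries. The mean of 535 ± 35.1 CPM on anti-CD40L was 1.31-fold the wild-type isotype mean of 409.9 ± 43.0 CPM (SD, n = 3 each), a log2 fold change of 0.38 ± 0.09 with an edgeR adjusted p of 0.0211 (95% interval 0.18 to 0.58). The call held in 15 of 18 alternatives. It was lost without replicate 1 of the anti-CD40L group, and without replicate 1 or replicate 2 of the wild-type isotype group, with edgeR adjusted p of 0.0841, 0.0900 and 0.0598 in those fits, and held without replicate 3 of the anti-CD40L group at 0.0244.

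Ubash3a encodes STS-2, a CBL-binding protein that dampens receptor signalling. It was at 112, 99.5 and 84.6 CPM in anti-CD40L cells, against 91.5, 78.2 and 84.1 CPM in wild-type isotype cells. Replicate 3 of the anti-CD40L group lay inside the isotype range. The log2 fold change of 0.23 ± 0.12 had an edgeR adjusted p of 0.233 (95% interval -0.02 to 0.48).

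**Figure D3:**
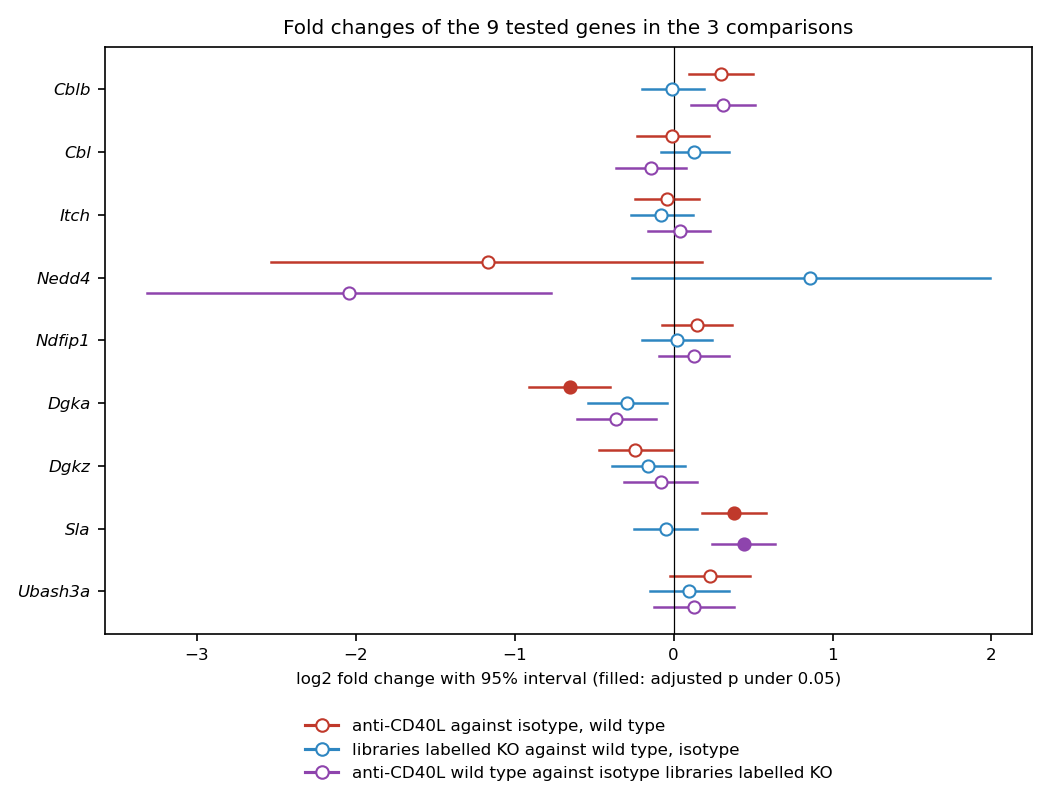
Log2 fold change (horizontal axis) of the 9 tested genes in the 3 comparisons, with lines for the 95% interval from the edgeR fit and filled circles for adjusted p under 0.05. Dgka at -0.65 and Sla at 0.38 are filled for anti-CD40L against isotype in wild type, Sla at 0.44 is filled for anti-CD40L against labelled KO, and labelled KO against wild type has no filled circle.

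Ratios within libraries placed Cblb, Sla and Itch against other members. The Cblb to Cbl count ratio was 6.35, 5.08 and 5.83 in anti-CD40L libraries, 4.59, 4.01 and 4.08 in libraries labelled KO and 4.41, 4.62 and 4.90 in wild-type isotype libraries, so all anti-CD40L libraries were above all isotype libraries. The Sla to Dgka ratio was 1.803, 1.18 and 1.53 in anti-CD40L libraries, 0.829, 0.763 and 0.954 in libraries labelled KO and 0.619, 0.709 and 0.827 in wild-type isotype libraries. More Sla than Dgka counts were thus found in every anti-CD40L library and fewer in every isotype library. Sla and Dgka were already called in opposite directions in these data, so this ratio adds no separate support. The Sla to Ubash3a ratio overlapped, at 5.12, 5.26 and 5.99 in anti-CD40L libraries and 3.96, 5.38 and 5.31 in wild-type isotype libraries. In libraries labelled KO it was 4.12, 4.05 and 5.02. Cblb to Itch was higher in every anti-CD40L library than in every isotype library, while Itch to Ndfip1 overlapped. Within their own families, Sla made up 98.8% of the Sla and Sla2 level per kb on anti-CD40L and 97.4% in wild-type isotype cells. Itch made up 23.3% and 21.3% of the 7 NEDD4-family genes, while its own level averaged 19.5 and 20.1 CPM per kb.

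Over the 9 libraries, which share the groups and so cannot give independent support, the genes whose log2 CPM followed Dgka most closely were Ecm1 (Pearson r = 0.986), Tbxa2r (0.983) and Lasp1 (0.979). Those nearest to Sla were Ets2 (0.959), Dnajb6 (0.958) and Ndufab1 (0.948), and those nearest to Cblb were Stt3b (0.975), Prrg4 (0.974) and Gatad1 (0.960). Among the members themselves, Dgka and Dgkz varied together (r = 0.822), Cblb varied with Sla (0.813) and against Dgka (-0.802) and Dgkz (-0.804). These are descriptions over n = 9 libraries with unequal depth.

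The sources used here do not say whether reads were counted by strand, so overlapping genes cannot be fully separated. Pmel, which overlaps Dgka, had 3244 counts in all against 44959 for Dgka, and its level was 24.9 CPM on anti-CD40L against 39.6 CPM in wild-type isotype cells, a log2 fold change of -0.66 with an edgeR adjusted p of 0.0137. Sla lies within the span of Tg, which had 1144 counts against 41762 for Sla. Tg moved in the direction of Sla: it was at 17.7, 16.7 and 14.7 CPM in anti-CD40L cells, 8.995, 8.71 and 8.33 CPM in libraries labelled KO and 14.0, 11.1 and 11.4 CPM in wild-type isotype cells, without overlap between groups. Its log2 fold change was 0.43 against wild-type isotype (edgeR adjusted p 0.123) and 0.92 against the libraries labelled KO (edgeR adjusted p 0.00542). The part of shared reads in the Dgka and Sla results was not tested. Rsph1, which overlaps Ubash3a, had 31 counts against 8682.

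The comparison of libraries labelled KO with wild type, both on isotype antibody, asks what loss of CD40L does to these genes without the antibody. None of the 9 genes passed the edgeR threshold, as did none of all 11256 genes (0.0%). At an unadjusted p under 0.05 there were 649 genes (5.77%) and 1 of the 9, Dgka. DESeq2 called 39 genes in all (0.346%), limma-voom 0 (0.0%) and limma-voom with quality weights 38 (0.338%), and none of the 9 was called by any of them.

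Dgka averaged 468 ± 41.2 CPM in libraries labelled KO and 573 ± 28.9 CPM in wild-type isotype libraries (SD, n = 3 each). The groups did not overlap, and the log2 fold change was -0.29 ± 0.12 (95% interval -0.54 to -0.04) with an edgeR adjusted p of 0.812. Dgkz was also without overlap, at 333 to 369 CPM against 371 to 440.0 CPM, with a log2 fold change of -0.16 ± 0.11 and an edgeR adjusted p of 0.927. Nedd4 was the third such gene, with 17, 32 and 41 counts in libraries labelled KO (2.26 ± 0.389 CPM) against 13, 15 and 10 counts (1.25 ± 0.156 CPM), and a log2 fold change of 0.86 ± 0.52 with an edgeR adjusted p of 0.902. Over all genes, 15.2% did not overlap in this comparison.

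The other members overlapped between these groups. Cblb averaged 448 ± 25.01 CPM in libraries labelled KO and, in wild-type isotype cells, 449.6 ± 35.2 CPM. Sla averaged 395 ± 26.7 CPM in libraries labelled KO and, in wild-type isotype cells, 409.9 ± 43.0 CPM (SD, n = 3 each). Their log2 fold changes of -0.01 (95% interval -0.20 to 0.19) and -0.05 (95% interval -0.25 to 0.15) leave out a rise as large as that of Sla on anti-CD40L. Cbl was at 96.2, 106 and 116 CPM in libraries labelled KO with a log2 fold change of 0.13, Itch at 93.6, 105 and 105 CPM with -0.08, Ndfip1 at 379, 379 and 422 CPM with 0.02 and Ubash3a at 101, 90.2 and 80.4 CPM with 0.10.

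The comparison of anti-CD40L wild-type cells with the libraries labelled KO, equals the difference between the first 2 comparisons. Sla was the only 1 of the 9 genes called, against 6.83% of all genes (1.79% as higher, 5.04% as lower). Its log2 fold change was 0.44 ± 0.09 with an edgeR adjusted p of 0.0124 (95% interval 0.24 to 0.64), 17 of 18 alternatives kept the call, and without replicate 2 of the libraries labelled KO the adjusted p was 0.0727. Without replicate 3 of the anti-CD40L group the log2 fold change was 0.48.

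For Dgka the difference between the anti-CD40L change of -0.65 and the change of -0.29 in the libraries labelled KO was -0.36 ± 0.12, with an edgeR adjusted p of 0.0829 (95% interval -0.61 to -0.11) that passed in 5 of 18 alternatives. The Dgka groups overlapped here, as replicate 2 on anti-CD40L at 442 CPM was above replicate 3 labelled KO at 423 CPM. Cblb had a log2 fold change of 0.31 ± 0.09 and an edgeR adjusted p of 0.0635, passing in 4 of 18. Nedd4 had a log2 fold change of -2.04 ± 0.59 and an edgeR adjusted p of 0.0573, passing in 6 of 18, on 15 counts in all against 90 counts. Cblb, Nedd4 and Sla were without overlap, which 26.2% of all genes were.

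The pathway around the members was read from 5 gene lists that hold none of the 10. On anti-CD40L against isotype in wild-type cells, 3 of 27 tested ubiquitin ligases, partners and deubiquitinases were called, all lower. That share of 11.1% is near the 9.37% of all genes called. Rnf167, a ligase of the same membrane-anchored RING family as GRAIL, was at 78.4, 86.5 and 73.8 CPM on anti-CD40L, against 119.5, 114 and 123 CPM on isotype (log2 fold change -0.57, edgeR adjusted p 0.00184). Peli1, a ligase that restrains T cell activation in mice, fell by 0.48 on the log2 scale, and Smurf1, a NEDD4-family ligase, fell by 0.65, with edgeR adjusted p of 0.00226 and 0.00668. The list's median log2 fold change was -0.04, against -0.01 over all genes.

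Of 26 tested genes of diacylglycerol and Ras signalling, 5 (19.2%, against 9.37% of all genes) were called, all lower, with a list median of 0.05. Rasgrp2, a calcium-regulated exchange factor for Rap1, was at 7.62, 11.9 and 11.1 CPM on anti-CD40L, against 44.1, 35.5 and 30.9 CPM on isotype, a 3.66-fold fall with an edgeR adjusted p of 0.000217. Rasa3, a GTPase-activating protein for Ras and Rap, was at 73.0, 98.3 and 76.1 CPM, against 270.1, 202 and 204 CPM, a 2.73-fold fall with an edgeR adjusted p of 0.000167. Prkd2, a kinase activated downstream of diacylglycerol, fell by 0.91 on the log2 scale with an edgeR adjusted p of 0.00232. The other called genes, named after their values were seen, were Rasgrp1, the main diacylglycerol-dependent Ras exchange factor of T cells (-0.58), and Plcg1, the phospholipase that makes diacylglycerol (-0.49), with edgeR adjusted p of 0.0025 and 0.0100. The Plcg1 call was lost without replicate 1 of the anti-CD40L group and without replicate 3 of the wild-type isotype group.

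Among 20 inhibitory adaptors and phosphatases, 3 were called (9.37% of all genes were), all lower, with a list median of -0.12. Themis, an adaptor needed for thymocyte selection, was at 20.8, 23.9 and 26.6 CPM on anti-CD40L, against 53.2, 39.9 and 47.6 CPM on isotype (log2 fold change -0.99, edgeR adjusted p 0.000536). Inpp5d, the lipid phosphatase SHIP-1, fell by 0.66 and Lax1, a membrane adaptor that dampens receptor signals, by 0.89 on the log2 scale, with edgeR adjusted p of 0.00938 and 0.0123. The Lax1 call was lost without replicate 1 of the anti-CD40L group and without replicate 2 of the wild-type isotype group.

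Of 24 listed targets of the ligases, 2 were called, both lower, with a list median of -0.16. That share of 8.33% is below the 9.37% of all genes called. Lat, the scaffold that holds PLC-gamma1 at the receptor, was at 344, 399 and 344 CPM on anti-CD40L, against 465, 571 and 470.3 CPM on isotype, with a log2 fold change of -0.47 and an edgeR adjusted p of 0.0189. That call was lost in 3 alternatives, without replicate 1 or replicate 3 of the anti-CD40L group or replicate 2 of the wild-type isotype group. Crtam, an adhesion receptor of activated T cells that no source used here names as a ligase target, fell by 0.96 on the log2 scale with an edgeR adjusted p of 0.000322. Cd40lg, the target of GRAIL on this list, was at 109, 132 and 163 CPM on anti-CD40L, against 142, 154 and 189 CPM on isotype, and its log2 fold change of -0.27 had an edgeR adjusted p of 0.228.

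Of 23 tested transcription and surface genes linked to anergy, 3 were called as higher and 4 as lower (30.4% in all, against 9.37% of all genes), with a list median of -0.24. Lag3, an inhibitory receptor for MHC class II, was at 50.8, 58.6 and 80.3 CPM on anti-CD40L, against 17.0, 23.6 and 26.8 CPM on isotype, a 2.80-fold rise with an edgeR adjusted p of 0.000395. Btla, an inhibitory receptor, rose by 0.48 on the log2 scale, with an edgeR adjusted p of 0.0214. The Btla call was lost without replicate 3 of the anti-CD40L group and without each wild-type isotype replicate in turn.

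The lower genes of that list include nuclear receptors that the T cell receptor induces. Nr4a1 was at 438, 643 and 612 CPM on anti-CD40L, against 748, 1038 and 920.3 CPM on isotype (log2 fold change -0.68, edgeR adjusted p 0.0142), a call lost without replicate 2 or replicate 3 of the wild-type isotype group. Nr4a2 was at 70.5, 83.7 and 69.0 CPM in anti-CD40L cells, 207, 180.1 and 215 CPM in libraries labelled KO and 115, 146 and 135 CPM in wild-type isotype cells. Its log2 fold change was -0.82 against wild-type isotype, with an edgeR adjusted p of 0.00059, while the value of 0.61 for libraries labelled KO against wild type had an edgeR adjusted p of 0.195. These groups did not overlap either, and that adjusted p ranged from 5.97e-06 to 0.65 over the alternatives and passed in 3 of 18. Tob1, a brake on T cell proliferation, fell by 0.80 with an edgeR adjusted p of 0.00189. The remaining called gene, named after its values were seen, was Foxo1 (-0.33), whose edgeR adjusted p of 0.0410 passed in 9 of 18 alternatives. Egr2 and Egr3, factors that NFAT induces in anergy and that were chosen after their values were seen, had log2 fold changes of -0.50 and -0.41 with edgeR adjusted p of 0.123 and 0.0538.

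**Figure D4:**
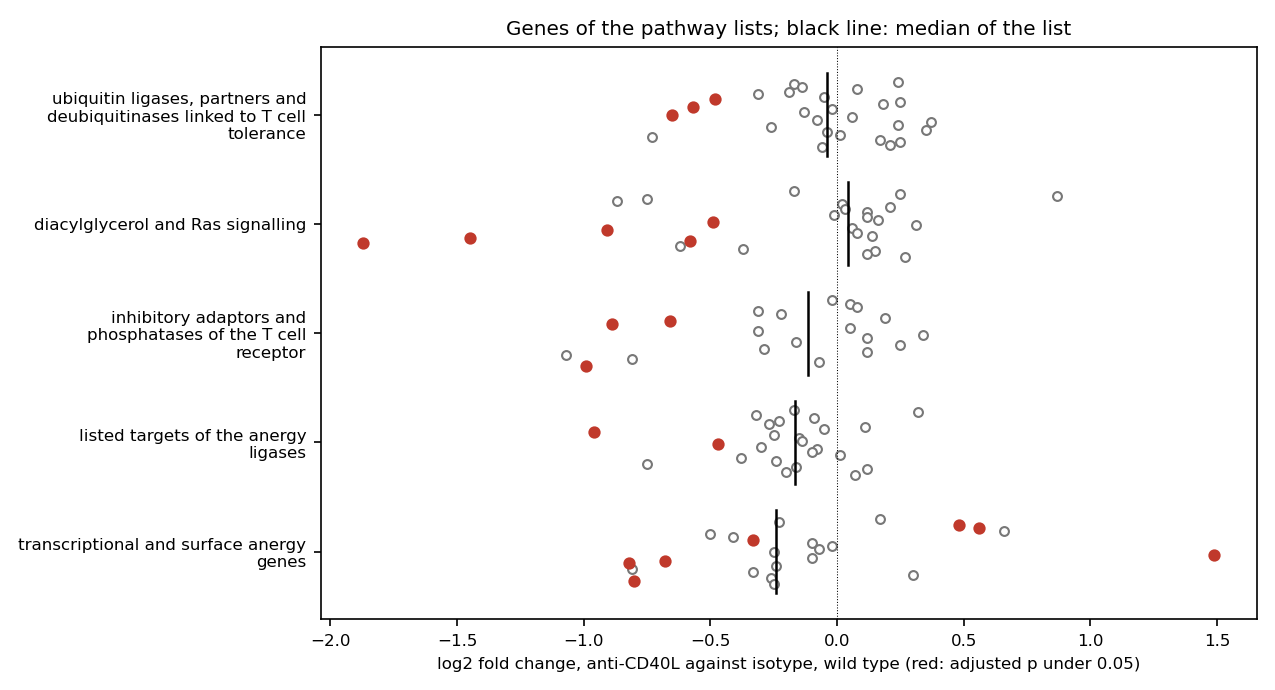
Log2 fold change of anti-CD40L against isotype in wild-type cells (horizontal axis) for each tested gene of the 5 lists (rows). Red circles have an edgeR adjusted p under 0.05, and black lines mark list medians, from -0.24 to 0.05; the red circles of the first 4 lists are all left of 0, and the last list has 3 on the right and 4 on the left.

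No gene of any list was called for libraries labelled KO against wild type by edgeR. The 5 lists above held 27, 26, 20, 24 and 23 tested genes. In that order, 1, 0, 0, 2 and 7 of them had an unadjusted p under 0.05, against 5.77% of all genes. DESeq2 called 4 list genes, limma-voom 0 and limma-voom with quality weights 2. The same lists were read for anti-CD40L against libraries labelled KO. They gave 0 higher and 3 lower, 0 and 5, 0 and 4, 0 and 1, and 3 and 7 called genes. The called share was lowest for the ligase targets, at 4.17%, and highest for the genes linked to anergy, at 43.5%. Of all genes 6.83% were called there, 1.79% as higher and 5.04% as lower. Both comparisons with anti-CD40L share those 3 libraries. Against the libraries labelled KO, Lag3 had a log2 fold change of 1.91 and Nr4a2 of -1.43, with edgeR adjusted p of 8.48e-05 and 2e-05.

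**Figure D5:**
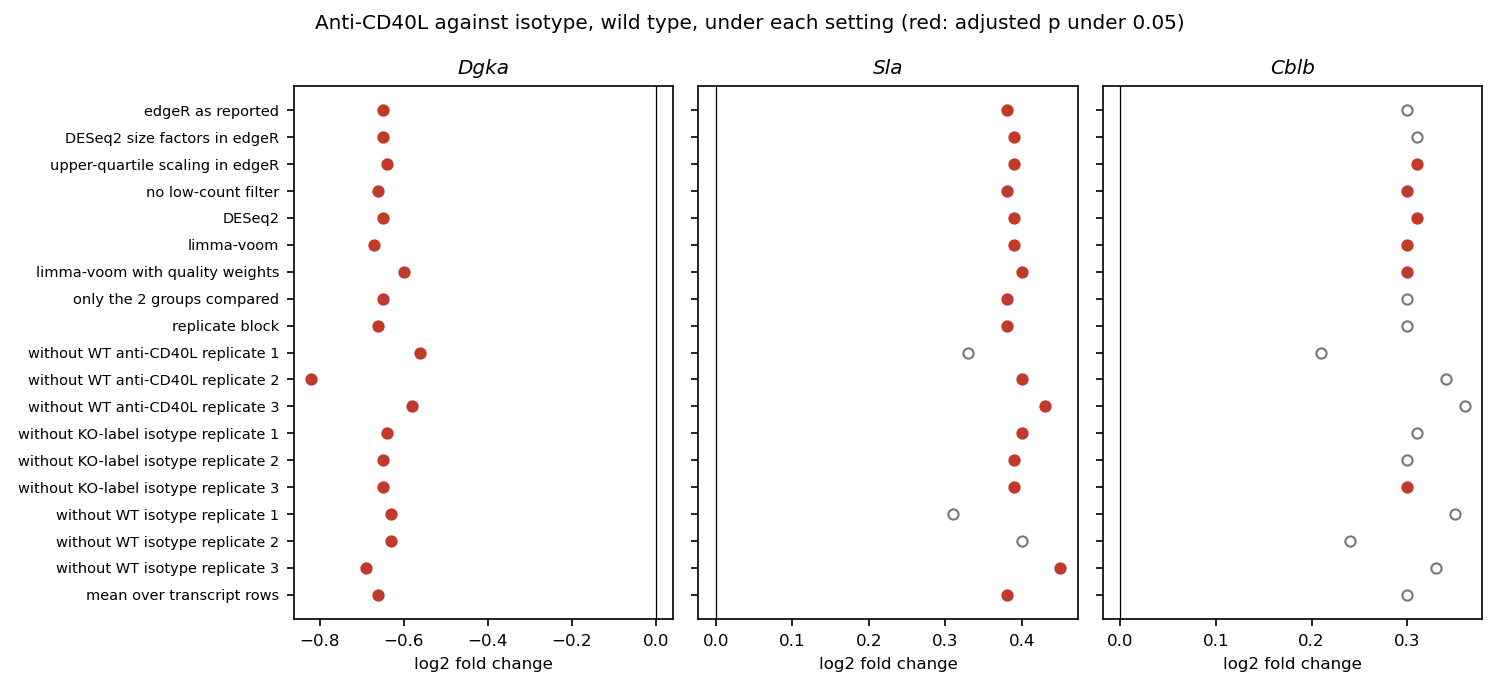
Log2 fold change of Dgka, Sla and Cblb (horizontal axes) for anti-CD40L against isotype in wild-type cells, as reported and under 18 other settings (rows). Red circles have an adjusted p under 0.05: Dgka is red in every row between -0.82 and -0.56, Sla in all but 3 rows, and Cblb in 6 of the 18 alternatives.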

How the data were processed

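The authors deposited raw expected counts for 42361 RefSeq transcripts in 9 libraries of splenic CD4+ T cells. All values were multiples of 0.5. The submitters' processing notes name CASAVA 1.8.2, HISAT2 2.1.0 and the build mm10. The sources used here give no counting tool and no use of strand.

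For each gene the transcript with the highest total was kept, since transcripts of a gene held nearly the same reads (median ratio of the next to the top total 0.992), and fractional values were rounded up. Rounded expected counts stand in for the whole counts that the design foresaw. Genes passing filterByExpr (11256) were scaled by TMM and tested with the quasi-likelihood test of edgeR 4.0.16 (R 4.3.3, robust) over all 9 libraries with 1 term per group; p-values were adjusted by Benjamini-Hochberg within each comparison at 0.05. The fitted common coefficient of variation between replicates was 0.127. Levels are CPM over scaled library sizes; CPM per kb used GENCODE transcript lengths, for Dgka that of another RefSeq transcript of the gene. On simulated data for anti-CD40L against isotype (11111 genes), 48.3% of 58 genes changed 1.5-fold and 81.9% of 72 genes changed 2-fold were recovered. Of the 163 calls there, 6.13% were false. Changes were planted only in genes above a minimum mean count, so these shares do not cover Nedd4 or Rnf128.

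Alternatives were other scalings, no filter, DESeq2 1.42.0, limma-voom (limma 3.58.1) with and without quality weights, only the groups compared, the replicate block, each library left out and the mean over transcripts. Named were all 10 members, up to 3 genes per direction of smallest p among the called genes of each list, and the 3 genes most correlated with each of the 3 members of smallest p (pseudocount 0.5 CPM); 1 gene chosen this way is not reported here. The members and lists were chosen with earlier results of these data known. RefSeq upstream windows were taken for 7 of the 10 members, and windows on chromosome 18, where Ndfip1 lies, were left out.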

Additional observations from a re-analysis of the deposited data

How the results depend on the processing

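Dgka stayed called for anti-CD40L against isotype in wild-type cells under all 18 alternatives. Sla was lost in 3 of them there and in 1 against the libraries labelled KO. Genes called for anti-CD40L against isotype numbered 1055 as reported, 1698 with no low-count filter, 1625 with DESeq2 and 486 to 1342 with 1 library left out. The low counts came without replicate 1 of the anti-CD40L group (486) and without replicate 1, 2 or 3 of the wild-type isotype group (495, 545 and 530). For libraries labelled KO against wild type the counts were 0 as reported, 102 with no filter, 39 with DESeq2, 38 with limma-voom and quality weights, 3 with only the 2 groups compared, and 0 to 2 with 1 library left out. For anti-CD40L against libraries labelled KO they were 769, 1305 with no filter, 1219 with DESeq2, 1458 with limma-voom and quality weights, 481 with only the 2 groups compared and 346 to 1022 with 1 library left out, the low counts without replicate 1 of the anti-CD40L group (448) or replicate 1 or 2 of the libraries labelled KO (447 and 346).

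Of the members, 2 were called for anti-CD40L against isotype (9.37% of all genes were). Cblb was called in addition with no filter (8.64% of all genes), upper-quartile scaling (9.93%), DESeq2 (14.4%) and limma-voom without (9.34%) or with quality weights (13.5%). With 1 library left out, 1 to 3 members were called (4.25 to 11.8% of all genes). Against the libraries labelled KO 1 was called (6.83% of all genes were). With no filter (6.64%), DESeq2 (10.8%) or limma-voom and quality weights (13.0%) 4 were called. With limma-voom (6.95%) or the mean over transcript rows (6.85%) 2 were called, and 0 to 3 with 1 library left out (3.03 to 9.0%). List genes called for anti-CD40L against isotype were 20 (9.37% of all genes were), 35 with no filter (8.64%) and 16 to 22 with 1 library left out (4.25 to 11.8%). For libraries labelled KO against wild type they were 0 (0.0% of all genes were) and 6 with no filter (0.519%). DESeq2 called 4 there (0.346%) and limma-voom with quality weights 2 (0.338%). For anti-CD40L against libraries labelled KO they were 23 (6.83% of all genes were), and 14 to 28 with 1 library left out (3.03 to 9.0%). The cause of these shifts was not tested.

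Signs turned only for values that were not called. For anti-CD40L against isotype the log2 fold change of Cbl was 0.0046 with upper-quartile scaling, 0.01 with limma-voom, 0.03 with quality weights and -0.07 to 0.08 with 1 library left out, and that of Itch -0.11 to 0.03. For libraries labelled KO against wild type Cblb was 0.0035 with upper-quartile scaling and -0.07 to 0.03 with 1 library left out, Ndfip1 -0.06 to 0.11 and Sla -0.13 to 0.01. For anti-CD40L against libraries labelled KO Itch was -0.02 to 0.10 and Dgkz -0.18 to 0.03 with 1 library left out.

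With the replicate block, 954, 0 and 664 genes were called in the 3 comparisons (8.48, 0.0 and 5.9% of all genes). Among them were 2, 0 and 1 members and 21, 0 and 26 list genes. Deviations of 9 same-numbered pairs of libraries from their group means correlated between -0.149 and 0.18, with 1 over 0.1. Between the 2 wild-type groups the same-numbered pairs were at 0.18, 0.084 and 0.078, and the other pairs between -0.106 and 0.013. Same-numbered pairs with a library labelled KO were between -0.149 and 0.062. With 3 libraries per group, these values cannot settle whether replicate numbers pair the libraries. Depth limits Nedd4 and Rnf128 most.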
